A study of Homo sapiens with 21 samples.

Results

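The genes of glycogen synthesis and breakdown described here are PGM1, UGP2, GYG1, GYS1, GBE1, PYGL, PYGB, PPP1R3B and PPP1R3C. They are the 9 of 42339 gene identifiers in the deposited count table whose Ensembl identifier maps to these symbols, and all 9 passed the filter on low counts in each of the 4 comparisons. Gene expression was measured by bulk RNA-seq in BT-549 cells, an established cell line of triple-negative breast cancer (TNBC), with 3 cultures in each of 7 groups. Unmodified BT-549 cells, with wild-type BRCA1, were grown attached in medium with serum and insulin (2D cells), as mammospheres at passage 6 in a sphere medium on low-attachment plates (3D cells), or as such 3D cells treated with 0.75 μmol/L GO-203, a peptide directed against the MUC1-C subunit. The other 4 groups were mammospheres of puromycin-selected lines that carry a hairpin switched on by doxycycline (DOX). They comprised tet-MUC1shRNA at passage 6 and tet-MYCshRNA at passage 8, each with 0.1% DMSO as vehicle or with 500 ng/ml DOX. Growth format, medium and passage changed together between 2D and 3D cells and cannot be told apart, and neither can an effect of DOX itself from that of the single hairpin in each line.

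Glycogen is a branched store of glucose. PGM1 and UGP2 turn glucose 6-phosphate into UDP-glucose, GYG1 primes the particle, GYS1 lengthens the chains and GBE1 sets the branches, whereas the phosphorylases PYGL and PYGB release glucose 1-phosphate. PPP1R3B and PPP1R3C bring protein phosphatase 1 to the particle, where it activates synthase and inactivates phosphorylase. Tumor cells are known to build glycogen under low oxygen and to draw on it later.

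Levels are given in CPM, counts relative to library size scaled by TMM factors over the 21 libraries, and as CPM per kilobase of merged exons (CPM per kb) where genes are compared with each other. A gene passed at an adjusted p below 0.1 over all genes tested (edgeR's quasi-likelihood test with Benjamini-Hochberg adjustment), and an absolute log2 fold change (log2FC) above 1.5 served as a stricter rule. Each log2FC has its SE from the fit. Whether the libraries of groups overlap is given as description, and how many of all genes do not overlap was not counted. Libraries held 38026597 to 99751717 counts. The mtDNA share of counts was 5.21% to 5.24% in 2D cells, 2.31% to 2.72% in 3D cells, 3.34% to 4.40% with GO-203, and 3.37% to 4.08% with vehicle and 3.96% to 5.07% with DOX in the tet-MYCshRNA line, and scaling without mtDNA genes changed no member's call in the 4 comparisons. Sampling noise did not account for the differences within any of the 21 replicate pairs, whose chi-square per degree of freedom ran from 4.37 to 52.8, and the widest pair lay among the DOX-treated tet-MYCshRNA libraries. The cultures were grown in triplicate from one line, so the p-values cover the spread between cultures, which may be technical. MUC1 was at 90.4 ± 9.64 CPM (SD, n = 3) with vehicle and at 21.4 ± 1.81 (SD, n = 3) with DOX in the tet-MUC1shRNA line. MYC was at 415 ± 26.6 CPM (SD, n = 3) and 274 ± 27.2 (SD, n = 3) in the tet-MYCshRNA line. Of the markers of a mesenchymal TNBC line, VIM was at 1076 CPM or more in the 21 libraries. The others differed in opposite directions between 2D and 3D cells, with mean levels of 451 and 6733 CPM for FN1, 93.8 and 207 CPM for ZEB1, and 442 and 51.3 CPM for CDH2, respectively. ESR1 was at 0 to 86 counts, PGR at 0 to 4 counts and EPCAM at 0 to 6 counts, CDH1 had 67 to 87 counts in 2D cells and 0 in 3D cells, and ERBB2 was present at 18.4 to 42.0 CPM. Of the markers of other cells, the endothelial CDH5 reached 4 counts with vehicle in the tet-MUC1shRNA line, and the leukocyte PTPRC reached 72 counts in 2D cells. The endothelial PECAM1 was at 0.0114 CPM in 2D cells and at 2.99 to 9.37 CPM on average in the other groups. The part of PECAM1-bearing cells in the results was not tested.

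Promoter letters are shown for 4 members, chosen by their results below. GBE1 and PPP1R3C passed as lower on MUC1 silencing and did not do so on MYC silencing. PYGL was lower in both, and PYGB was higher after MYC silencing. GYS1, UGP2 and PYGB also passed as lower on MUC1 silencing and not on MYC silencing, so the 4 are a selection. Each line holds the 250 bases before the RefSeq start site on GRCh38.p14, 5′ to 3′ on the gene's strand. The capitals mark ACGTG or GCGTG on either strand (CACGT and CACGC where the match is on the opposite strand), the core letters of a hypoxia response element, and CACGTG, the E-box letters bound by MYC and related factors, which hold ACGTG on both strands.
GBE1: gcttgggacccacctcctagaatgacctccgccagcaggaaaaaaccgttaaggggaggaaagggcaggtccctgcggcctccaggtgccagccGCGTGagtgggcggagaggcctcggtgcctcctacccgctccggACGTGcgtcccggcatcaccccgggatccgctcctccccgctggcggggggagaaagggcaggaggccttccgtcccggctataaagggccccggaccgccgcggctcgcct
PPP1R3C: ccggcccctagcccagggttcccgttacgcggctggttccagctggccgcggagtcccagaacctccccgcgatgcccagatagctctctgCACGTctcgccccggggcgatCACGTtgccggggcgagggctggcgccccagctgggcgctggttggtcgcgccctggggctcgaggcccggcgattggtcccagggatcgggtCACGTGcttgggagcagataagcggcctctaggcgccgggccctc
PYGL: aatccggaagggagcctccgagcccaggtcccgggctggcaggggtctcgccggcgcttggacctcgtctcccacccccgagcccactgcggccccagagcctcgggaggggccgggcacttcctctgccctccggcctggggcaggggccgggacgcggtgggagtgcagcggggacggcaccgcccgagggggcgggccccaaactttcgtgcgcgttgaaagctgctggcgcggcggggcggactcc
PYGB: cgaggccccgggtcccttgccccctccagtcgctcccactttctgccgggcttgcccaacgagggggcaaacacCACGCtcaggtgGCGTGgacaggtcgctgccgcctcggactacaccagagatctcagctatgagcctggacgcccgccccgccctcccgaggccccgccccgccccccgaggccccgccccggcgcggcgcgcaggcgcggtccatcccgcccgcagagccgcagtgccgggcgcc
The GBE1 window (chr3:81761646-81761895, minus strand) held 1 ACGTG and 1 GCGTG. In the PPP1R3C window (chr10:91633072-91633321, minus strand) there were 4 matches to ACGTG, of which 1 CACGTG gave a pair, and 0 to GCGTG. No match lay in the PYGL window (chr14:50944484-50944733, minus strand), and PYGB (chr20:25247835-25248084, plus strand) had 2 matches to GCGTG. Of the members not shown, GYS1 had 2 matches to GCGTG. GYG1, which did not pass on MUC1 silencing, had 2 to ACGTG, both in 1 CACGTG, and 1 to GCGTG. UGP2 had 1 ACGTG and 1 GCGTG at start site 1, and 1 GCGTG at start site 2. PGM1 had 1 ACGTG and 2 GCGTG at start site 2, and 0 core matches at start sites 1 and 3. Among 35116 such windows of the reference, 18.5% held ACGTG, 32.2% held GCGTG, 43.2% held either and 6.35% held CACGTG, while 3.22% held at least 4 of the core matches. A match describes letters in this window and not a bound site.

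Expressed per kb, the branching enzyme GBE1 and the brain-type phosphorylase PYGB were the members with the highest levels in 3D cells, at 143 and 120 CPM per kb. PYGL followed with 67.3 CPM per kb, then GYS1 with 35.6, PGM1 with 30.5, PPP1R3C with 26.2, UGP2 with 14.1 and GYG1 with 9.05. PPP1R3B was near 0 in unmodified cells, with 0 to 4 counts in 2D libraries and 10 to 27 in 3D libraries, and reached at most 0.773 CPM per kb on average, in vehicle-treated tet-MUC1shRNA mammospheres. Across the 7 groups the mean level varied 1.35-fold for GYG1, whose neighbouring groups all overlapped, 9.45-fold for PYGB, in which no neighbouring groups overlapped, and 13.1-fold for PPP1R3C. UGP2 and PGM1 each varied 2.60-fold, GYS1 3.12-fold, PYGL 4.31-fold and GBE1 6.17-fold. Lowest among the groups were 2D cells for GBE1, PGM1, PYGL, PYGB and PPP1R3B, and DOX-treated tet-MUC1shRNA cells for GYS1, PPP1R3C and UGP2, the last of which overlapped with 2D cells.

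**Figure D1:**
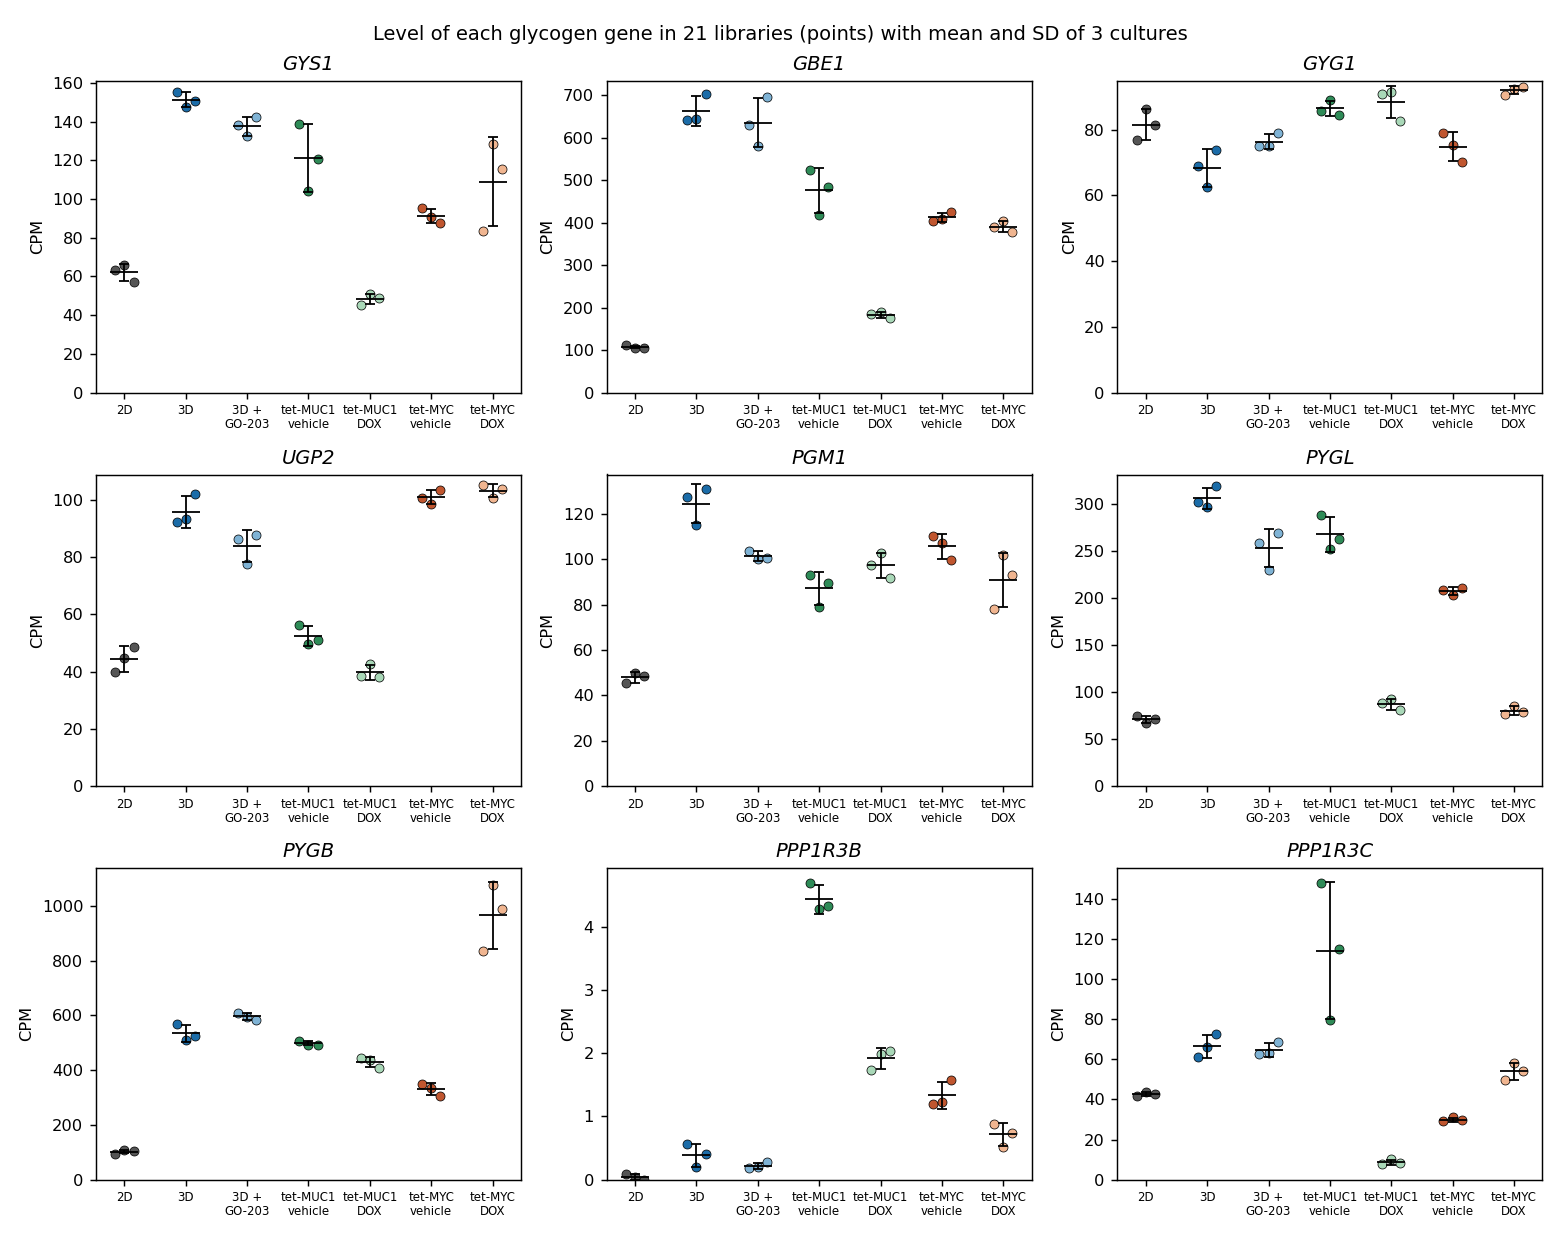
TMM-scaled CPM (linear axis from 0) of each of the 9 glycogen genes in the 7 groups, with 1 point per library and the mean and SD of 3 cultures. GBE1, PYGL and PYGB sit lowest in 2D cells, PPP1R3C falls from 114 to 8.72 CPM with DOX in the tet-MUC1shRNA line, and PYGB is highest, at 966 CPM, with DOX in the tet-MYCshRNA line.

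Comparison of 3D with 2D cells addressed how expression shifts on enrichment for stem-like cells. Synthesis and breakdown enzymes were upregulated together in 3D cells, with GBE1 increased 6.17-fold in mean level and PYGB and PYGL more than 4-fold. Of the 9 members, 8 were higher and GYG1 alone was lower (edgeR's quasi-likelihood test), whereas 32.0% and 31.7% of all genes tested were higher and lower in this comparison. The median log2FC was 1.37 for the members and -0.0074 for the 19190 genes tested. Under the stricter rule 4 members were higher (GBE1, PYGB, PYGL and PPP1R3B) and 0 lower, against 6.90% and 9.29% of all genes. PPP1R3B passed the low-count filter only through the 3D libraries and had no value with at least 10 counts in every library, so its place in these counts follows in part from the filter.

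Among the enzymes that supply UDP-glucose, PGM1 (chromosome 1, 63593411 to 63660245, plus strand, GRCh38) was at 45.4, 49.9 and 48.7 CPM in the 2D libraries and at 128, 115 and 131 CPM in the 3D libraries. The log2FC was 1.37 (SE 0.06, adjusted p = 2.0e-11, edgeR's test). UGP2 (chromosome 2, 63840952 to 63891562, plus strand) had 39.7, 44.7 and 48.6 CPM in 2D cells and 92.1, 93.1 and 102 CPM in 3D cells. All 3D libraries of both genes lay above all 2D libraries, and UGP2 changed by a log2 of 1.10 (SE 0.07, adjusted p = 1.8e-09, edgeR). When tet-MUC1shRNA vehicle cells stood in for 3D cells, the UGP2 change was 0.23 (adjusted p = 0.0135, edgeR).

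GYG1, the primer of the particle (chromosome 3, 148991408 to 149031775, plus strand), was at 76.8, 86.2 and 81.4 CPM in 2D cells and at 68.9, 62.4 and 73.8 CPM in 3D cells. The groups did not overlap, and its log2FC of -0.26 (SE 0.07, adjusted p = 0.00383, edgeR) was the smallest among the members. Against 2D cells it was 0.081 (adjusted p = 0.237) in tet-MUC1shRNA and -0.12 (adjusted p = 0.111) in tet-MYCshRNA vehicle cells by edgeR's test, so it did not pass with either line in place of 3D cells. On the opposite strand HLTF covers 21.8% of the GYG1 exon bases, and 3 pseudogenes carry its name, so reads could be shared if strand was not used in counting.

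GYS1, the synthase that lengthens the chains (chromosome 19, 48968130 to 48993310, minus strand), had 63.4, 65.9 and 57.3 CPM in 2D cells. In 3D cells it had 155, 148 and 150.5 CPM, a log2FC of 1.28 (SE 0.06, adjusted p = 3.1e-11, edgeR). GBE1 (chromosome 3, 81489703 to 81761645, minus strand) went from 111, 106 and 105 CPM to 643, 644 and 704 CPM, a log2FC of 2.62 (SE 0.06, adjusted p = 1.1e-15, edgeR). For both enzymes the 3D libraries were more than 2-fold above the highest 2D library. Smaller changes were found with tet-MYCshRNA vehicle cells, where GYS1 was at 0.56 (adjusted p = 2.2e-06) and GBE1 at 1.945 (adjusted p = 3.4e-13) by edgeR's test.

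Both phosphorylases rose. PYGL, the liver-type enzyme (chromosome 14, 50857891 to 50944483, minus strand), was at 74.5, 67.2 and 71.4 CPM in 2D cells and at 302, 297 and 319 CPM in 3D cells. PYGB, the brain-type enzyme (chromosome 20, 25248085 to 25298012, plus strand), was at 95.2, 107 and 104 CPM and at 569, 511 and 523 CPM, respectively. The groups lay far apart for both genes, with log2FC values of 2.10 for PYGL (SE 0.06, adjusted p = 2.9e-14) and 2.38 for PYGB (SE 0.06, adjusted p = 1.2e-14) in edgeR's test. With tet-MYCshRNA vehicle cells in place of 3D cells they were 1.55 (adjusted p = 9.8e-12) and 1.69 (adjusted p = 2.2e-11), both under 4-fold (edgeR). Their sum was 38.6 ± 0.737 CPM per kb (SD, n = 3) in 2D cells and 187 ± 7.07 (SD, n = 3) in 3D cells, of which PYGL made up 40.5% ± 2.702 and 36.0% ± 1.59 (SD, n = 3 each). The ranges of that share, from 38.0% to 43.4% in 2D and from 34.3% to 37.4% in 3D cells, lay close to each other.

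Of the phosphatase targeting subunits, PPP1R3C (chromosome 10, 91628442 to 91633071, minus strand) had 41.8, 43.9 and 42.8 CPM in 2D cells and 61.2, 66.0 and 72.5 CPM in 3D cells. Its log2FC was 0.63 (SE 0.07, adjusted p = 5.8e-07, edgeR), with no overlap. This direction was not shared by both vehicle groups, since the change was 1.41 (adjusted p = 2.1e-07) with tet-MUC1shRNA and -0.51 (adjusted p = 4.8e-06) with tet-MYCshRNA vehicle cells in place of 3D cells (edgeR). PPP1R3B (chromosome 8, 9136255 to 9151574, minus strand) had 4, 2 and 0 counts in 2D and 27, 10 and 26 counts in 3D libraries, so that a few counts set its value. The pooled counts, 6 and 63, gave a ratio of 10.3 with a 95% exact interval of 4.49 to 29.2 that covers counting error only, and the fitted log2FC of 3.26 (SE 0.75, adjusted p = 0.00137, edgeR) was 4.31 without 2D replicate 1 and 2.65 without 2D replicate 3.

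Among 25 other genes of glycogen metabolism, 22 were tested between 3D and 2D cells, of which 11 were higher, 3 were lower and 8 did not pass (edgeR), with a median log2FC of 0.33. PHKA1, the muscle-type regulatory subunit of the kinase that activates phosphorylase, had 2, 4 and 10 counts in 2D cells and 5514, 5625 and 7775 counts in 3D cells. It was thus nearly absent from 2D cells, and the ratio of pooled counts was 1162 with a 95% exact interval of 715 to 2033 that covers counting error only, while the 2D counts themselves spread 5-fold. Like PPP1R3B, it passed the low-count filter only through the 3D libraries, so its place among the genes called higher follows in part from the filter, and its fitted log2FC of 10.14 (adjusted p = 1.7e-17, edgeR) rests on those few 2D counts. That of the phosphoglucomutase relative PGM2L1 was -3.53 (adjusted p = 1.0e-14) and that of the second glycogenin gene, GYG2, was 1.70 (adjusted p = 1.8e-07) in edgeR's test. The untested genes were the muscle phosphorylase PYGM, the liver synthase GYS2 and the targeting subunit PPP1R3A, which were near 0 in all groups with at most 10 counts in a library.

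**Figure D2:**
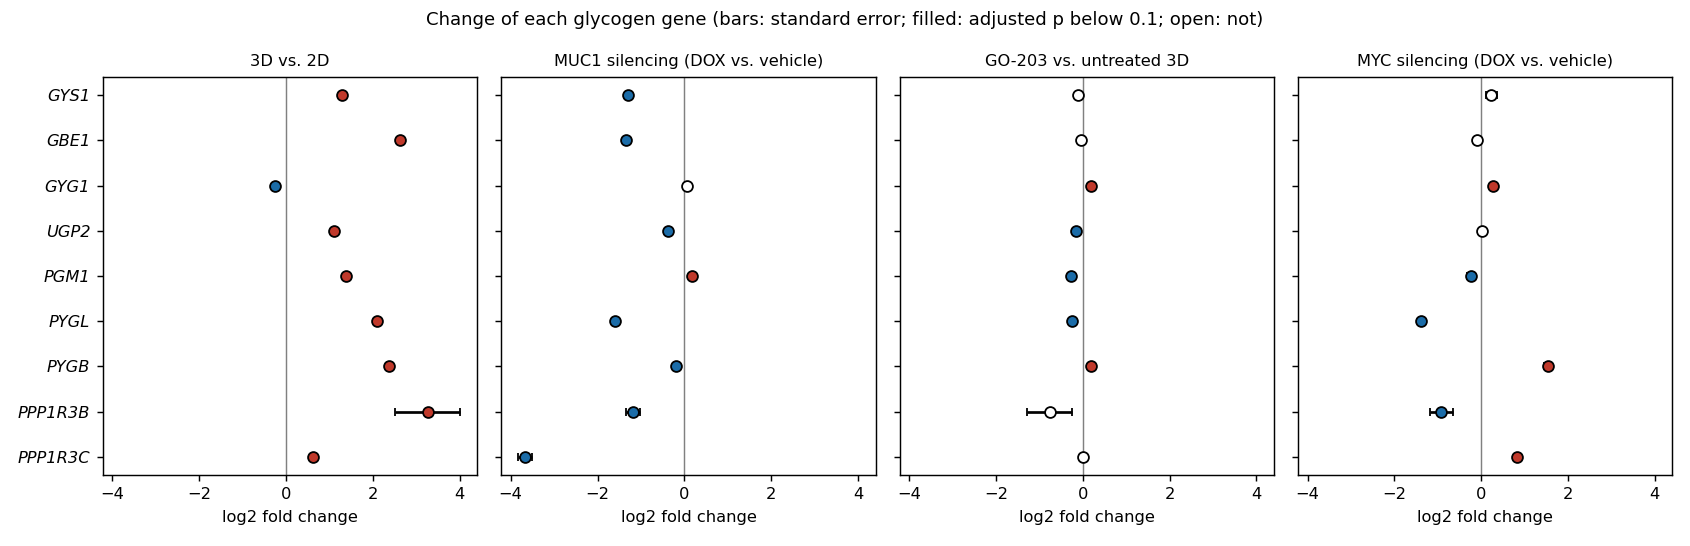
Log2 fold change (x axis) of the 9 glycogen genes (y axis) in the 4 comparisons, with the standard error as a bar; filled points passed at an adjusted p below 0.1 (red higher, blue lower) and open points did not. Points lie to the right in 3D vs. 2D except for GYG1, mostly to the left on MUC1 silencing, near 0 with GO-203 except for PPP1R3B, and on both sides on MYC silencing, where PYGL is at -1.39 and PYGB at 1.53.

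MUC1 silencing in mammospheres asked which of these transcripts need MUC1 expression. Synthase, branching enzyme, PYGL and both targeting subunits were downregulated by more than 2-fold with DOX in the tet-MUC1shRNA line, and PPP1R3C showed the largest decrease of all members, by 12.8-fold. Of the 9 members, 7 were lower, PGM1 was higher and GYG1 did not pass (edgeR's quasi-likelihood test), where 31.6% of all genes tested were lower and 30.7% higher. The median log2FC was -1.18 for the members and 0.024 for the 19220 genes tested. PPP1R3C and PYGL remained lower under the stricter rule, which 3.08% of all genes passed in that direction and 5.74% as higher, although PYGL was at -1.43 and no longer met that rule under library size alone. In bulk cultures, fewer cells of a type and less RNA per cell cannot be told apart.

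PPP1R3C was at 148, 79.8 and 115 CPM in the vehicle libraries and at 7.96, 10.2 and 8.04 CPM in the DOX libraries. The vehicle libraries spread nearly 2-fold among themselves, yet the lowest of them lay far above the highest DOX library. Its log2FC was -3.67 (SE 0.15, adjusted p = 2.9e-14, edgeR). PPP1R3B, which had its highest level in this line, went from 4.70, 4.28 and 4.33 CPM to 1.74, 1.99 and 2.04 CPM, a log2FC of -1.18 (SE 0.16, adjusted p = 1.6e-06, edgeR).

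GYS1 was at 139, 104 and 121 CPM with vehicle and at 45.5, 50.8 and 49.1 CPM with DOX. GBE1 was at 525, 419 and 485 CPM with vehicle and at 185, 190 and 175 CPM with DOX. Neither gene overlapped between the groups, and their log2FC values were near each other, at -1.30 for GYS1 (SE 0.07, adjusted p = 4.5e-12) and -1.36 for GBE1 (SE 0.06, adjusted p = 4.9e-14) in edgeR's test. The DOX-treated cells had less GYS1 than 2D cells, at 48.4 ± 2.69 and 62.2 ± 4.43 CPM (SD, n = 3 each), but more GBE1, at 183 ± 7.56 and 108 ± 3.13 CPM (SD, n = 3 each), and the libraries of these groups did not overlap for either gene.

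PYGL was at 288.5, 252 and 262 CPM with vehicle and at 88.2, 92.1 and 80.8 CPM with DOX, a log2FC of -1.60 (SE 0.05, adjusted p = 8.1e-16, edgeR). The change in PYGB was small, from 508, 494 and 494 CPM to 445, 435 and 409 CPM, with a log2FC of -0.19 (SE 0.04, adjusted p = 4.0e-04, edgeR). While every DOX library lay below every vehicle library for both phosphorylases, scaling by library size alone, which moved the median of all genes to 0.19, gave -0.02 for PYGB (adjusted p = 0.598, edgeR). PYGL accounted for 34.5% ± 1.23 (SD, n = 3) of the phosphorylase sum in vehicle cells and 16.6% ± 0.544 (SD, n = 3) in DOX cells.

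Of the enzymes that make UDP-glucose, UGP2 was lower and PGM1 was higher. UGP2 was at 56.4, 49.8 and 50.9 CPM with vehicle and 38.5, 42.6 and 38.1 CPM with DOX, a log2FC of -0.37 (SE 0.06, adjusted p = 2.2e-05, edgeR). PGM1 overlapped between the groups, at 93.1, 79.2 and 89.7 CPM and at 97.7, 103 and 91.7 CPM, with a log2FC of 0.18 (SE 0.06, adjusted p = 0.00912, edgeR). The latter was 0.11 (adjusted p = 0.0991) without vehicle replicate 2 and did not pass when all 21 libraries shared a fit (0.16, adjusted p = 0.113, edgeR). GYG1 was at 86.4 ± 2.39 and 88.3 ± 4.86 CPM (SD, n = 3 each), a log2FC of 0.055 (SE 0.05, adjusted p = 0.360, edgeR) that passed under library size alone (0.22, adjusted p = 4.0e-04) and with at least 10 counts in every library (0.11, adjusted p = 0.0655).

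Markers also differed within this line, with CDH2 at 11.9 ± 0.850 CPM with vehicle and 74.2 ± 0.643 CPM with DOX and ZEB1 at 323 ± 16.6 and 119 ± 3.41 CPM (SD, n = 3 each), and their part in the member changes was not tested. The share of counts from mtDNA genes was 2.60% to 2.77% with vehicle and 6.36% to 6.72% with DOX in this line. Leaving mtDNA genes out of the scaling gave log2FC values of -3.67 for PPP1R3C, -1.59 for PYGL, -1.35 for GBE1 and -1.29 for GYS1, and still 7 members lower and 1 higher. Of the 25 other glycogen genes, 21 were tested (STBD1, too, had low counts here), with 9 higher, 9 lower and 3 not passing (edgeR), and a median of -0.05. GAA, the lysosomal enzyme that degrades glycogen, had a log2FC of -1.74 (adjusted p = 1.4e-10), PPP1CC, a catalytic subunit of protein phosphatase 1, one of -1.20 (adjusted p = 1.5e-15) and GYG2 one of -1.18 (adjusted p = 2.5e-06) by edgeR. The phosphorylase kinase subunits were picked after their values were seen, and 30.7% of all genes were higher in this comparison. They had log2FC values of 0.21 for PHKA1, 0.28 for PHKA2, 0.68 for PHKG2, 0.99 for PHKB and 1.03 for PHKG1 (adjusted p of 0.00592 or less, edgeR). With GO-203 the values were -0.33 for PHKA1, 0.13 for PHKA2, -0.18 for PHKG2, -0.035 for PHKB and 0.29 for PHKG1, and only PHKA1 passed (edgeR). On MYC silencing they were -0.14 for PHKA1, 0.071 for PHKA2, -0.18 for PHKG2, 0.29 for PHKB and -0.020 for PHKG1.

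Treatment with GO-203 asked which members change under a peptide against MUC1-C, in comparison with the same 3D libraries that entered 3D vs. 2D. This question differs from that of silencing, since the paper describes GO-203 as blocking the function of MUC1-C while leaving its level unchanged. The glycogen genes changed little, with no member past an absolute log2FC of 1.5, which 0.498% of all genes passed as higher and 0.260% as lower. Of the 9 members, GYG1 and PYGB were higher, UGP2, PGM1 and PYGL were lower and 4 did not pass (edgeR's quasi-likelihood test), and 11.1% of all genes tested were higher and 12.9% lower. The median log2FC was -0.11 for the members and 0.015 for the 18488 genes tested.

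PYGL was at 259, 230.1 and 269 CPM in GO-203-treated cells, below the 302, 297 and 319 CPM of the untreated 3D libraries, with a log2FC of -0.25 (SE 0.06, adjusted p = 0.00360, edgeR). PGM1 likewise lay lower, at 104, 100.1 and 100.4 CPM, with a log2FC of -0.26 (SE 0.06, adjusted p = 0.00316, edgeR). For PYGB the treated libraries had 610, 594 and 584 CPM and lay above the untreated ones, with a log2FC of 0.19 (SE 0.05, adjusted p = 0.0143, edgeR). The groups thus did not overlap for these 3 genes, nor did they for GYG1, UGP2 and GYS1, the last of which did not pass. PYGL made up 36.0% ± 1.59 of the phosphorylase sum without and 29.3% ± 1.79 with GO-203 (SD, n = 3 each). The sum itself was 187 ± 7.07 and 189 ± 5.03 CPM per kb (SD, n = 3 each).

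Several of these calls rested on single libraries. GYG1 had a log2FC of 0.19 (SE 0.06, adjusted p = 0.0335), but 0.14 (adjusted p = 0.167) without 3D replicate 2 and 0.18 (adjusted p = 0.112) without GO-203 replicate 3 in edgeR's test. PYGB did not pass without GO-203 replicate 1 (0.17, adjusted p = 0.107, edgeR). The UGP2 value of -0.16 (SE 0.06, adjusted p = 0.0704) became -0.12 without 3D replicate 3 (adjusted p = 0.263) or without GO-203 replicate 2 (adjusted p = 0.229) in the same test. With all 21 libraries in one fit, GYG1 (adjusted p = 0.123) and PYGB (adjusted p = 0.155) did not pass in edgeR's test.

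The 4 members that did not pass with GO-203 were PPP1R3C, GBE1, GYS1 and PPP1R3B. PPP1R3C was at 62.5, 63.3 and 68.8 CPM in treated cells, within the range of the untreated libraries for each of them, with a log2FC of -0.0058 (SE 0.06, adjusted p = 0.966, edgeR). GBE1 was at 631, 580.4 and 696 CPM with a log2FC of -0.03 (SE 0.06, adjusted p = 0.764, edgeR), and also overlapped with the untreated libraries. GYS1, at 138, 132 and 142 CPM, was below the untreated libraries without passing edgeR's test (log2FC -0.11, SE 0.06, adjusted p = 0.214), whereas DESeq2 gave an adjusted p of 0.0976. PPP1R3B, with 8, 8 and 16 counts, had a log2FC of -0.77 with an SE of 0.52 (adjusted p = 0.353, edgeR), so a decrease of this size was not detectable at these counts. The difference between GO-203 and MUC1 silencing was not tested. MUC1 itself was at 255 ± 10.2 CPM in treated and 207 ± 21.8 CPM in untreated 3D cells (SD, n = 3 each). Its log2FC was 0.33 (adjusted p = 0.00191, edgeR), so its RNA was not lowered. The dose was a single one, lower than those the paper gives for its immunoblot and sphere formation assays with GO-203.

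Among the 22 other glycogen genes tested with GO-203, 2 were higher, 2 were lower and 18 did not pass (edgeR), with a median of -0.02. PPP1R3E, a further targeting subunit, had a log2FC of 0.55 (adjusted p = 0.00232), GAA one of 0.33 (adjusted p = 0.0923) and PHKA1 one of -0.33 (adjusted p = 2.8e-04) by edgeR.

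MYC silencing asked which members change when MYC RNA is lowered, here by a log2FC of -0.62. A member that did not pass may still depend on the MYC that remained. In the tet-MYCshRNA line the phosphorylases moved apart, with PYGL downregulated by more than 2-fold and PYGB upregulated 2.89-fold. PPP1R3C was upregulated 1.78-fold, whereas GBE1, GYS1 and UGP2 did not pass. In all, 3 members were higher (PYGB, PPP1R3C and GYG1) and 3 lower (PYGL, PPP1R3B and PGM1) in edgeR's quasi-likelihood test, with 30.3% of all genes tested higher and 28.1% lower. The median log2FC was 0.013 for the members and 0.0088 for the 19951 genes tested. MUC1 itself was at 69.0 ± 3.84 CPM with vehicle and at 167 ± 27.7 CPM with DOX in this line (SD, n = 3 each), and its part in these results was not tested. Under the stricter rule PYGB was higher and 0 members were lower, against 7.06% and 3.39% of all genes. PYGB no longer met this rule without the low-count filter (1.49), without vehicle replicate 3 (1.46) or without DOX replicate 2 (1.44).

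PYGL was at 207 ± 3.79 CPM (SD, n = 3) with vehicle and at 76.9, 85.2 and 78.8 CPM with DOX, a log2FC of -1.39 (SE 0.06, adjusted p = 6.6e-08, edgeR). PYGB was at 349, 334.5 and 307 CPM with vehicle and at 834.5, 1077 and 987 CPM with DOX, a log2FC of 1.53 (SE 0.09, adjusted p = 4.4e-07, edgeR). Although DOX replicate 1 was the lowest in PYGB, the DOX libraries all lay more than 2-fold above the vehicle libraries. As a result PYGL made up 38.1% ± 1.76 (SD, n = 3) of the phosphorylase sum in vehicle cells and 7.58% ± 0.612 (SD, n = 3) in DOX cells, the lowest share among the 7 groups, and the sum went from 120 ± 4.53 to 234.5 ± 28.4 CPM per kb (SD, n = 3 each). The final PYGL level, 80.3 ± 4.34 CPM, was near the 87.0 ± 5.76 CPM of DOX-treated tet-MUC1shRNA cells, and these groups overlapped (SD, n = 3 each).

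**Figure D3:**
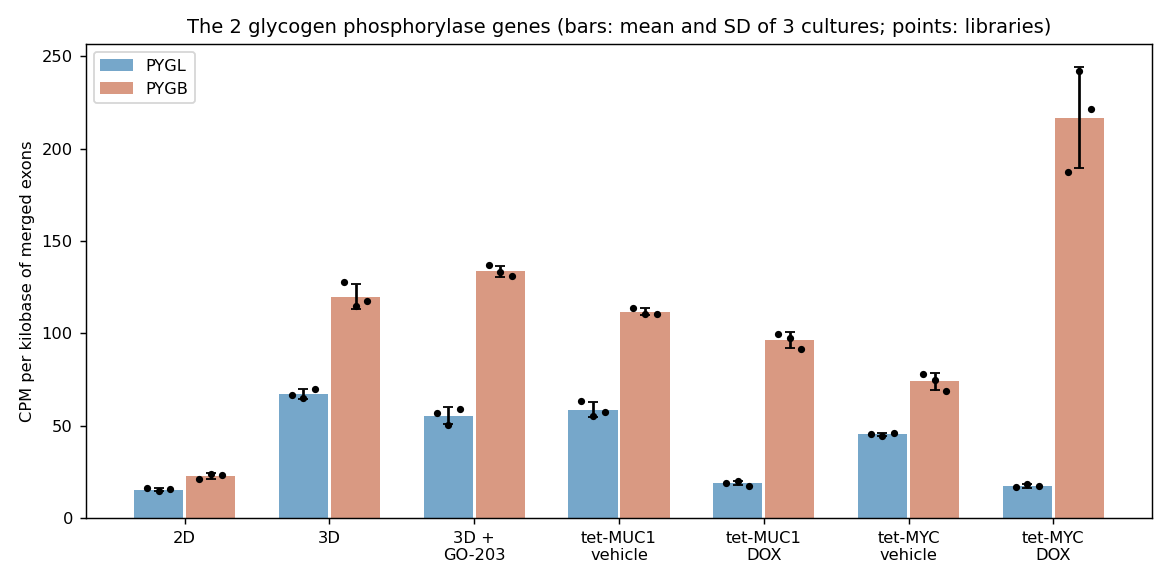
CPM per kb of merged exons of PYGL (blue) and PYGB (red) in the 7 groups, with bars for the mean from 0, error bars for the SD of 3 cultures and points for the libraries. PYGL is low in 2D cells and in both DOX groups, whereas PYGB is low in 2D cells and highest, at 217 CPM per kb, in DOX-treated tet-MYCshRNA cells.

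PPP1R3C was at 29.1, 31.0 and 29.8 CPM with vehicle and at 49.8, 58.4 and 54.0 CPM with DOX. Its log2FC was 0.83 (SE 0.08, adjusted p = 1.2e-05, edgeR). PPP1R3B was lower, from 1.198, 1.22 and 1.58 CPM to 0.888, 0.516 and 0.743 CPM, with a log2FC of -0.92 (SE 0.27, adjusted p = 0.0158, edgeR). The 2 targeting subunits thus moved in opposite directions on MYC silencing, without overlap between vehicle and DOX for either.

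GYS1 with DOX ranged from 83.5 to 128 CPM, on both sides of the vehicle libraries at 95.2, 90.7 and 87.8 CPM. Its log2FC was 0.24 (SE 0.13, adjusted p = 0.151, edgeR) and reached 0.39 (adjusted p = 2.1e-04) without DOX replicate 1. It also passed without the low-count filter (0.20, adjusted p = 0.0470) and with all 21 libraries in one fit (0.26, adjusted p = 0.0382) in edgeR's test. GBE1 was at 413 ± 10.8 and 391 ± 13.2 CPM (SD, n = 3 each) with a log2FC of -0.10 (SE 0.06, adjusted p = 0.172, edgeR), and its DOX libraries lay just below its vehicle libraries without overlap. UGP2 was at 101 ± 2.42 and 103 ± 2.28 CPM (SD, n = 3 each) with one of 0.013 (SE 0.06, adjusted p = 0.875, edgeR).

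GYG1 was at 78.9, 75.4 and 70.0 CPM with vehicle and at 90.6, 92.5 and 92.9 CPM with DOX, a log2FC of 0.28 (SE 0.07, adjusted p = 0.00492, edgeR) without overlap. PGM1, at 110, 107 and 99.8 CPM and at 77.9, 102 and 93.1 CPM, overlapped between the groups. Its log2FC of -0.24 (SE 0.09, adjusted p = 0.0537) was lost without vehicle replicate 1 (adjusted p = 0.146), vehicle replicate 2 (adjusted p = 0.123) or DOX replicate 3 (adjusted p = 0.106), and was -0.14 without DOX replicate 1 (adjusted p = 0.0795) in edgeR's test.

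Among the 22 other glycogen genes tested on MYC silencing, 10 were higher, 3 were lower and 9 did not pass (edgeR), with a median of 0.16. GAA was at 3.14, 2.57 and 3.27 CPM with vehicle and at 12.6, 22.6 and 20.96 CPM with DOX, a log2FC of 2.63 (adjusted p = 3.1e-06, edgeR). PGM2L1 had a log2FC of 1.75 (adjusted p = 3.1e-06) and the phosphoglucomutase PGM2 one of -1.37 (adjusted p = 2.6e-07) in the same test.

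The DOX effects in the lines were then compared directly as an interaction over the 12 tet libraries, in which line and passage cannot be told apart. The silenced genes fell unequally, with a log2FC of -2.06 for MUC1 and -0.62 for MYC in their own lines. MYC was at 0.25 with DOX in the tet-MUC1shRNA line. The part of these unequal changes in the differences was not tested. Of the 9 members, 7 had a lower and 1, PGM1, a higher DOX effect in the tet-MUC1shRNA than in the tet-MYCshRNA line, against 26.9% and 26.0% of all 21585 genes tested (edgeR's quasi-likelihood test). Under the stricter rule 3 of them were lower and 0 higher, against 8.56% and 7.59% of all genes. GYS1, one of the 3, fell short of this rule under library size alone (-1.34), without the low-count filter (-1.48), with at least 10 counts in every library (-1.47), without tet-MUC1shRNA vehicle replicate 1 (-1.45) and without tet-MYCshRNA DOX replicate 2 (-1.42). PPP1R3C had the largest difference, with a log2 of -4.53 (SE 0.23, adjusted p = 2.2e-11, edgeR), since it was lower on MUC1 silencing and higher on MYC silencing. PYGB differed by -1.73 (SE 0.11, adjusted p = 3.8e-10), GYS1 by -1.55 (SE 0.17, adjusted p = 6.4e-07) and GBE1 by -1.27 (SE 0.09, adjusted p = 4.3e-09) in edgeR's test. For PYGL the effects were -1.60 and -1.39, a difference of -0.22 (SE 0.09, adjusted p = 0.0514, edgeR) that did not pass under library size alone (-0.018, adjusted p = 0.877), without the low-count filter (-0.16, adjusted p = 0.280) or with at least 10 counts in every library (-0.15, adjusted p = 0.124). It was also lost without any of vehicle replicate 1 (adjusted p = 0.151) or DOX replicate 3 (adjusted p = 0.139) of the tet-MUC1shRNA line and vehicle replicate 2 (adjusted p = 0.110) or DOX replicate 2 (adjusted p = 0.102) of the tet-MYCshRNA line. PPP1R3B did not pass, with a difference of -0.28 (SE 0.28, adjusted p = 0.455, edgeR).

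**Figure D4:**
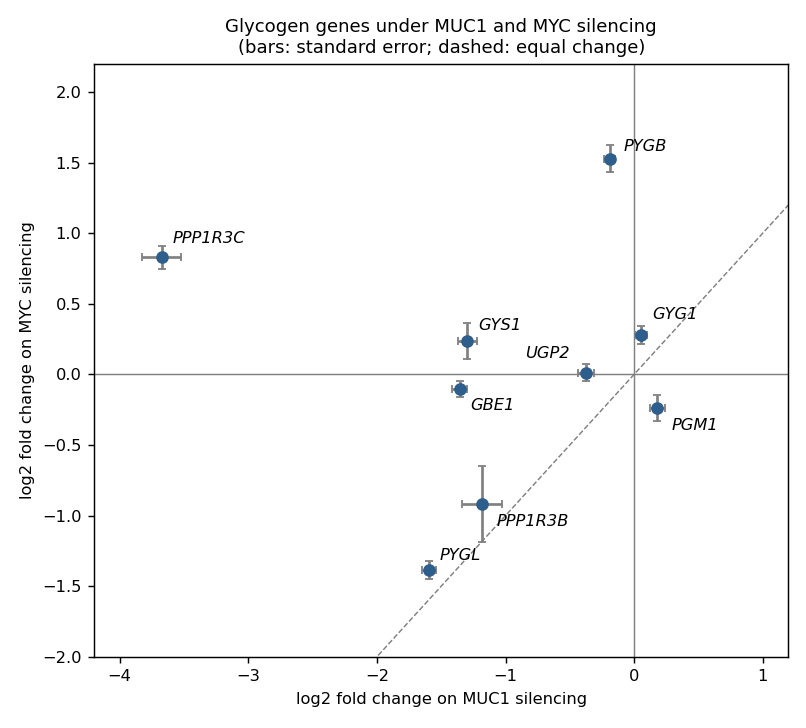
Log2 fold change on MUC1 silencing (x axis) against that on MYC silencing (y axis) for the 9 glycogen genes, with standard errors as bars and equal change as the dashed line. PYGL and PPP1R3B lie in the lower left near that line, PPP1R3C lies far to the upper left, and PYGB is high on the y axis with little change on the x axis.

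Likeness of patterns was described by Pearson's r of log2(CPM + 1) over the 21 libraries, which share their group conditions. GBE1 and GYS1 were the most alike members (r = 0.89, with 0.94 over the 12 libraries of the tet lines and 0.99 over the 9 others), followed by PYGL with GBE1 (0.84) and PPP1R3C with GYS1 (0.82). Likeness of PGM1 with GBE1 (0.80) came from the 9 libraries of unmodified cells (0.98) and was absent from the tet lines (-0.14). PYGB and PYGL behaved similarly in the former (0.98) but not in the latter (-0.53). GYG1 ran against PYGL (-0.60).

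Among 13602 genes with a mean of at least 1 CPM, the genes most like GBE1 were AK4, an adenylate kinase of mitochondria (r = 0.98), PFKFB4, which sets fructose 2,6-bisphosphate (0.98), and SPAG4 (0.98). Those most like GYS1 were EML3 (0.96), NPHP4 (0.96) and ZC3HAV1L (0.95), and those most like PPP1R3C were PLXNA3 (0.97), CDC73 (0.96) and ATF2 (0.95), the last of which had r = 0.06 over the 9 unmodified libraries. PYGL was most like FAM210A (0.99), IL21R (0.97) and RPL9 (0.97), and PYGB most like CST3, which encodes cystatin C (0.98), EHD3 (0.97) and C1orf21 (0.97). UGP2 was followed by UXT (0.98), ARHGAP28 (0.97) and IGF2BP3 (0.96), and PGM1 by ACADVL, a fatty acid oxidation enzyme (0.96), VGF (0.96) and STX4 (0.96), with r from 0.56 to 0.62 in the tet lines. Lower values were found for GYG1, with RNF14 (0.89), CREBL2 (0.88) and STIM1 (0.88), and PPP1R3B was most like PFN2 (0.97), LINC02609 (0.95) and COG5 (0.95).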

How the data were processed

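RNA from 21 BT-549 cultures was sequenced as stranded mRNA libraries. Reads were mapped by the authors to GRCh38 using STAR, and the deposited values are raw counts of reads assigned to genes by featureCounts, without normalization. The submitters' processing notes name STAR 2.7.3a, which differs from the STAR version in the paper's methods, and CASAVA 1.8.2. Which annotation release was used, whether strand was counted and how multi-mapping reads were treated is not given in the sources used here. Cells of the table without a value were read as 0. Groups came from the sample labels.

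In R 4.3.3, each pair of groups was fitted on its own 6 libraries with edgeR 4.0.16 (filterByExpr, TMM factors, quasi-likelihood test, Benjamini-Hochberg adjustment), and the interaction on 12 libraries. Depth was high for all members but PPP1R3B, so replicate spread limits precision. The members and gene lists were chosen with earlier results of these data known. Besides the 9 members, the genes named are the 3 other glycogen genes with the largest absolute change per comparison among those that passed with a mean normalized count of at least 100, and the 3 genes most like each member. The phosphorylase kinase subunits were also named outside this rule. Gene positions are from GENCODE on GRCh38, and promoter windows from RefSeq on GRCh38.p14, in which 8 of the 9 members matched. The alternatives were DESeq2 1.42.0, RLE size factors, scaling by library size alone or by TMM without mtDNA genes, a replicate block, no low-count filter or a minimum of 10 counts per library, a joint fit of the 21 libraries, an adjusted p below 0.05, an absolute log2 fold change above 1.5, vehicle-treated tet lines in place of 3D cells, and leaving out each library. The same fits were tested on simulated data, with 100 genes raised by a log2 of 1 and 100 by a log2 of 2. In the real data 12223 genes passed in 3D vs. 2D and 11420 in the interaction. The recovered shares therefore do not give the power of the tests above. For 3D vs. 2D, over 19190 genes, 97% of genes changed by a log2 of 2 and 66% of those changed by a log2 of 1 were recovered, with 24 unchanged genes called. For the interaction, over 21585 genes, these shares were 79% and 55%, with 13 unchanged genes called.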

Additional observations from a re-analysis of the deposited data

Results flagged for a closer look

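The DOX effect differed between the tet-MUC1shRNA and tet-MYCshRNA lines for 8 of the 9 members, by edgeR's quasi-likelihood test of the interaction over 12 libraries, in which 26.9% of all genes tested had a lower and 26.0% a higher effect in the former line. The differences in log2 fold change, tet-MUC1shRNA minus tet-MYCshRNA, were -4.53 for PPP1R3C, -1.73 for PYGB, -1.55 for GYS1, -1.27 for GBE1, -0.40 for UGP2 (adjusted p = 0.00114), -0.24 for GYG1 (adjusted p = 0.0297), -0.22 for PYGL and 0.40 for PGM1 (adjusted p = 0.0107). PPP1R3C had the opposite sign in the lines, at -3.67 and 0.83. The difference for PYGL was lost under 3 of 8 alternatives and with 4 of 12 libraries left out. That for GYG1 did not pass under library size alone (-0.03, adjusted p = 0.758) or without the low-count filter (-0.17, adjusted p = 0.274), in edgeR's test. Line, hairpin, passage and depth of silencing (log2FC of -2.06 for MUC1 and -0.62 for MYC) differ together and cannot be told apart.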

How the results depend on the processing

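Of 375 member values under alternatives other than leaving out a library, 355 kept their direction and side of the threshold, and of 324 values with a library left out, 304 did. Reversed directions were GYG1 in 3D vs. 2D with tet-MUC1shRNA vehicle cells (0.081), PPP1R3C with tet-MYCshRNA vehicle cells (-0.51), PPP1R3C with GO-203 under library size alone (0.0011), and UGP2 on MYC silencing under library size alone (-0.011) and without the low-count filter (-0.021). With 1 library left out, values ran from -0.062 to 0.050 for PPP1R3C and from -0.091 to 0.016 for GBE1 with GO-203, and from -0.023 to 0.028 for UGP2 on MYC silencing. The cause was not tested.

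The stricter fold rule, which calls fewer genes by construction, left 4 members higher and 0 lower in 3D vs. 2D, 0 higher and 2 lower on MUC1 silencing, 0 and 0 with GO-203, 1 and 0 on MYC silencing, and 0 and 3 for the interaction. Among the strict calls, PYGL on MUC1 silencing was at -1.43 under library size alone, PYGB on MYC silencing at 1.49 without the low-count filter and at 1.44 without DOX replicate 2, and GYS1 in the interaction at -1.34 under library size alone and at -1.42 without tet-MYCshRNA DOX replicate 2. For the other glycogen genes the rule left 2 and 1, 0 and 2, 0 and 0, and 2 and 0 in the 4 comparisons. With tet-MUC1shRNA vehicle cells in place of 3D cells 0 members were lower, and 5 other glycogen genes were lower with either vehicle line. On MUC1 silencing 2 members were higher under library size alone and with at least 10 counts in every library, and 0 in the fit of all 21 libraries. With GO-203, 0 members were higher in that fit. Other glycogen genes higher with GO-203 numbered 1 without the filter, 4 with at least 10 counts, 1 in the fit of all 21 libraries and 1 at an adjusted p below 0.05, at which 1 was lower. Leaving out a library gave 1 to 2 members higher, 1 to 2 other genes higher and 1 to 2 lower with GO-203.

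The replicate numbers did not pair the cultures (mean correlation of deviations from -0.10 to 0.06). With the replicate block 8 members were higher and 1 lower in 3D vs. 2D, 1 and 7 on MUC1 silencing, 2 and 3 with GO-203 and 3 and 3 on MYC silencing, and the block changed no member's call. Depth limits PPP1R3B, with at most 27 counts in an unmodified library.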
